A study of Mus musculus with 21 samples.

Results

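Neat1, Malat1, Gm26917, Rn7sk, Rmrp and Rpph1 are 6 genes annotated as noncoding RNAs, with reads in total RNA depleted of ribosomal RNA. Whether the Gm26917 reads are leftover ribosomal RNA was not tested. The 6 were selected by name on their high read counts in these libraries and on the comparison of genotypes at 6 months. They are 6 of 49315 gene identifiers in the deposited tables, of which 42782 had a count in at least 1 library. Because levels and that comparison chose them, both are given below as a description of the members, without a test. The series concerned the AP-2α and AP-2β transcription factors, encoded by Tfap2a and Tfap2b, in mouse epidermis, and RNA came from sheets of epidermis. Of 21 deposited samples, 8 had counts and 13 were listed at 0 for every gene. The 8 were 3 strain-specific controls at 6 months, labelled wild type, 3 double conditional knockouts at 6 months (double cKO, genotype K14CreTfap2afl/flTfap2bfl/fl) and 2 Tfap2b cKO samples at 3 weeks (genotype K14CreTfap2bfl/fl). The K14Cre transgene expresses Cre recombinase from the Krt14 promoter, active in basal keratinocytes, so other cells of the sheet, such as Langerhans cells, T cells and melanocytes, should keep the floxed alleles. The labels give no Cre or floxed allele for the controls, no sex, and no statement that replicates came from separate animals. If they did not, the p-values below measure only the spread between these samples.

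Of the 6 RNAs, all but Gm26917 are known for roles in the nucleus or nucleolus, and where an RNA lies in the cell was not measured here. Neat1 is the scaffold of paraspeckles, nuclear bodies assembled with proteins such as NONO, SFPQ and PSPC1, and Malat1 collects in nuclear speckles, which are rich in splicing factors. Both are made by RNA polymerase II. RNase P cuts the 3′ ends of their full-length transcripts, which are then protected by a triple helix instead of a poly(A) tail. Rn7sk, the 7SK RNA, holds the elongation kinase P-TEFb inactive together with HEXIM, LARP7 and MEPCE. Rmrp is the RNA of RNase MRP, which takes part in ribosomal RNA processing, and Rpph1 is the RNA of RNase P, which trims the 5′ end of transfer RNAs. These last 3 are short transcripts of RNA polymerase III. Gm26917 is annotated as a long intergenic noncoding RNA, a type that was not checked here, and no function is stated for it.

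Neat1 (ENSMUSG00000092274) and Malat1 (ENSMUSG00000092341) are neighbours on the minus strand of mouse chromosome 19 in the GRCm38 build. Neat1 spans chr19:5824708-5845478 with 20771 exonic bases, and Malat1 spans chr19:5795690-5802672 with 6983. The gap between them is 22035 bases. Their 3′ ends are shown because neither full-length RNA needs a poly(A) tail to be stable. Both carry the same pair of tracts, in Neat1 at the annotated end and in Malat1 upstream of it. In the transcript sequences of GENCODE M21, capitals mark the T-rich TTTTGCTTT and the A-rich AAAAGCAAA, and positions count from the 5′ end of the transcript. The Malat1 stretch covers bases 6616 to 6760 and the Neat1 stretch covers bases 20689 to 20771, the last base of the transcript.
Malat1: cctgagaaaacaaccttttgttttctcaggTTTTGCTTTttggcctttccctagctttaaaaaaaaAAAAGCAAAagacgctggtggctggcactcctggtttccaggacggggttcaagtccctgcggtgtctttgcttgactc
Neat1: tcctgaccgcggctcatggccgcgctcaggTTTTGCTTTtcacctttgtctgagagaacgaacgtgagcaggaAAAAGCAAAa
The tracts are 27 bases apart in Malat1 and 34 bases apart in Neat1. Malat1 runs on for 223 bases after the stretch shown. Searched on the transcript strand, the pair in this order with at most 120 bases between was present in 15 of 141767 annotated transcripts (0.0106%). Each tract alone lay within the last 120 bases of 0.239% (T-rich) and 0.347% (A-rich) of 137364 transcripts of that length or longer. Those shares apply to Neat1 only, because in Malat1 the tracts are followed by 329 and 293 bases of the annotated transcript. The tracts are nearly reverse complements, so a match to either is close to a match to its partner on the opposite strand.

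The 3 RNA polymerase III transcripts are single short exons. Rn7sk (ENSMUSG00000065037) lies at chr9:78175303-78175633 on the minus strand and has 331 bases. Rmrp (ENSMUSG00000088088) lies at chr4:43492788-43493058 on the minus strand with 271 bases, and Rpph1 (ENSMUSG00000092837) lies at chr14:50807449-50807767 on the minus strand with 319. Their sequences are shown because length and sequence shared with other annotated genes bear on how many reads could be assigned to each. Capitals mark GATC, the motif repeated in the 5′ stem of 7SK where HEXIM is known to bind.
Rn7sk, first 60 bases: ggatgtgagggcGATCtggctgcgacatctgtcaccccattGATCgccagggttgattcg
Rmrp, whole transcript: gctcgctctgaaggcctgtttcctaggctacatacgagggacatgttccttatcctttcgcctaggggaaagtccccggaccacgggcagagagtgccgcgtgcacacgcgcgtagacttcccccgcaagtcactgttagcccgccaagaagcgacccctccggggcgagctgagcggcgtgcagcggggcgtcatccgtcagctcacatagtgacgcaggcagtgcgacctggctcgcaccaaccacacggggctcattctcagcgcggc
Rpph1, first 60 bases: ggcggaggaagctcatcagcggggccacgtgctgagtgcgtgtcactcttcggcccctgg
GATC is a short motif that reads the same on both strands, and it was present in the first 60 bases of 14.3% of 141515 transcripts. Of the 50-base windows of Rn7sk, 68.1% also occurred in another annotated gene, shared with 7 genes in all. For Rmrp the share was 100%, because the annotation holds a second Rmrp model with the same sequence. For Rpph1 the share was 68.1%, all with Ccnb1ip1. These shares compare transcript sequences, so a gene model over the same bases counts as another gene, and they do not show separate copies. In the counted annotation, no other gene shared exon bases with Rpph1. Rmrp also shares 124 exon bases with Ccdc107 on the opposite strand, which held 28 to 55 counts per library. Whether the counting used strand or shared multiply mapped reads is not given in the sources used here, so the levels of these 3 RNAs are uncertain to that extent.

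Gm26917 (ENSMUSG00000097971) lies on the plus strand at chr17:39843013-39846341 and has 3329 exonic bases. Its start is shown as an example of its base composition, with no part in capitals.
Gm26917, first 60 bases: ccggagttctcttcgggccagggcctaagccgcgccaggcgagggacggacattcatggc
The whole Gm26917 transcript is 69.1% G or C, the highest of the 6. Rpph1 is at 67.1%, Rmrp at 64.2%, Rn7sk at 58.0%, Neat1 at 47.3% and Malat1 at 42.5%. None of its 50-base windows (0.0%) occurred in another annotated gene. The search covered annotated transcripts only, so copies elsewhere in the genome could not appear. The next gene on that strand, Gm42418, starts after a gap of 616 bases and is known as a gene model that takes up leftover ribosomal RNA reads. Whether Gm26917 takes up such reads too was not tested.

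The 8 libraries held 11318181 to 17746284 counts in genes. Control replicates 1 and 2 stood apart from the other 6 libraries. They had counts in 35794 and 39362 genes, against 23454 to 25537 in the others. Over 1418 odorant and vomeronasal receptor genes they had 1.61 and 3.19 counts per kb, against 0.097 to 0.195. Those receptor genes were taken as a background, on the assumption, not checked here, that epidermis expresses few of them. All 9 keratinocyte markers were detected in each library, with a summed level of 13740 to 16370 CPM (counts per 1000000 counts of the library) in the controls, 19030 to 23430 in the libraries labelled double cKO and 14640 to 16030 in those labelled Tfap2b cKO. Summed over 6 fibroblast markers, levels were 53.0 to 156.8 CPM in controls, 11.7 to 23.1 in double cKO, 2556 in Tfap2b cKO replicate 1 and 17.3 in its replicate 2. Tfap2a was at 140.3 to 210.1 CPM in controls and at 213.2 to 309.2 in double cKO, and Tfap2b at 57.3 to 86.6 and 53.8 to 57.2. Counts over a whole gene do not separate the exons that Cre removes, so they did not check the labels. Xist was at 89.8 and 193.9 CPM in the Tfap2b cKO libraries and at 0.507 to 7.81 in the 6 others, while the Y-linked Ddx3y was at 50.7 to 98.2 in all 8.

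Together the 6 RNAs took between 9.78% and 12.1% of each library. Their share of all counts was 9.78%, 10.01% and 10.72% in control replicates 1 to 3, 11.52%, 10.9% and 11.44% in double cKO, and 12.1% and 10.3% in Tfap2b cKO. The means were 10.17% ± 0.490 in controls and 11.29% ± 0.337 in double cKO (SD, n = 3), a difference of 1.12 percentage points, and the lowest double cKO value was above the highest control. That order came from Gm26917. Without it, the other 5 took 7.41%, 7.07% and 5.88% in controls, 5.81%, 5.25% and 5.69% in double cKO, and 5.13% and 5.69% in Tfap2b cKO. Without Gm26917, then, the order was the opposite, with all 3 controls above all 3 double cKO libraries.

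**Figure D1:**
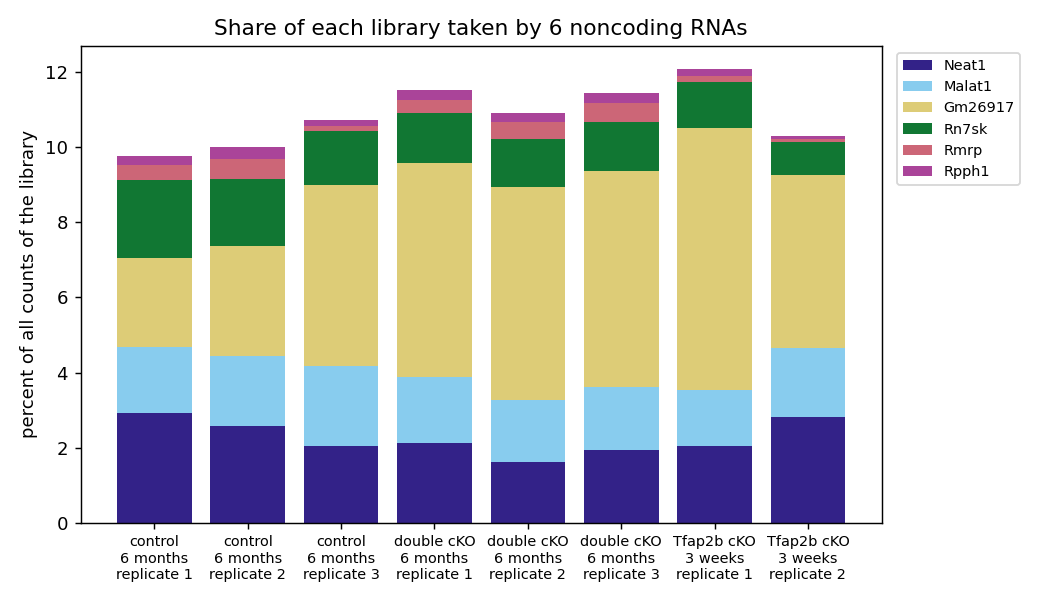
Percent of all counts of each library (vertical axis) taken by each of the 6 RNAs, stacked, for the 8 libraries with counts. The full bars run from 9.78% to 12.1%, and Gm26917 runs from 2.37% in control replicate 1 to 6.96% in Tfap2b cKO replicate 1.

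Gm26917 had the most counts of all genes by mean CPM over the 8 libraries. It ranked 1 in 6 of them and 2 in control replicates 1 and 2, and Neat1 ranked 1 in control replicate 1. Gm26917 stood at 23714, 29458 and 48448 CPM in the controls, at 57161, 56585 and 57459 in double cKO, and at 69646 and 46106 in Tfap2b cKO. Every double cKO library lay above every control, and control replicate 3 lay nearer to the double cKO libraries than to the other controls. The means were 33870 ± 12940 and 57070 ± 444.4 CPM (SD, n = 3), and the log2 fold change in the fit of all genes was 0.68 with a standard error (SE) of 0.24. The base composition of the counts moved with it. Protein-coding genes in the fifth of highest GC content (1724 genes, at least 55.2% GC) took 15.4%, 15.5% and 17.1% of coding counts in controls, 17.6%, 18.0% and 18.5% in double cKO, and 22.6% and 18.0% in Tfap2b cKO, so the library with the most Gm26917 also had the most counts in GC-rich genes. Genes in the fifth of lowest GC content took 24.3%, 25.8% and 22.1%, then 21.1%, 20.3% and 20.6%, then 15.5% and 20%. The part of base composition in the values of Gm26917 and the other members was not tested. Gm42418, the neighbour of Gm26917, stood at 4820, 9565 and 2003 CPM in controls and at 5424, 3156 and 5204 in double cKO. In Tfap2b cKO it stood at 3964 and 975.9 CPM. The part of ribosomal RNA reads in the Gm26917 counts was not tested either, and the values of Gm42418 do not decide it.

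Neat1 was lower in 2 of 3 double cKO libraries than in any control, and Malat1 in all 3. Neat1 stood at 29235, 25869 and 20489 CPM in controls, at 21176, 16300 and 19468 in double cKO, and at 20402 and 28155 in Tfap2b cKO. The groups at 6 months overlapped, because control replicate 3 lay below double cKO replicate 1. Means were 25200 ± 4412 and 18980 ± 2474 CPM (SD, n = 3), with a log2 fold change of -0.49 (SE 0.18). Malat1 stood at 17564, 18449 and 21132 CPM in controls, at 17540, 16469 and 16739 in double cKO, and at 15073 and 18437 in Tfap2b cKO. The groups did not overlap, but control replicate 1 lay only just above double cKO replicate 1. Means were 19050 ± 1858 and 16920 ± 557 CPM (SD, n = 3), with a log2 fold change of -0.25 (SE 0.14). The 2 RNAs did not keep a fixed ratio: Neat1 had 1.66, 1.4 and 0.97 counts per Malat1 count in controls, 1.21, 0.99 and 1.16 in double cKO, and 1.35 and 1.53 in Tfap2b cKO. Control replicate 3 had the lowest Neat1 and the highest Malat1 of the controls. The annotated small genes inside each locus, such as Gm27533 in Neat1 and Gm27694 in Malat1, were at 0 counts in all 8 libraries. These 2 share 152 and 86 exon bases with Neat1 and Malat1. How reads over shared bases were counted is not given, so the 0 does not show that they were silent.

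Rn7sk was the short RNA with the most counts. It stood at 20741, 17691 and 14188 CPM in controls, at 13146, 12937 and 13018 in double cKO, and at 12190 and 8730 in Tfap2b cKO. Every double cKO library lay below every control. Means were 17540 ± 3279 and 13030 ± 105.4 CPM (SD, n = 3), with a log2 fold change of -0.51 (SE 0.17). In bulk RNA, fewer cells with an RNA and less of it per cell cannot be told apart.

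Rmrp and Rpph1 had groups at 6 months that overlapped. Rmrp stood at 4070, 5336 and 1326 CPM in controls, at 3646, 4428 and 5084 in double cKO, and at 1625 and 730.01 in Tfap2b cKO. Control replicate 3 was low, nearer to the Tfap2b cKO libraries than to any other library at 6 months. Rmrp means were 3577 ± 2050 and 4386 ± 719.7 CPM (SD, n = 3), with a log2 fold change of 0.21 (SE 0.46). Rpph1 stood at 2483, 3334 and 1666 CPM in controls, at 2548, 2329 and 2626 in double cKO, and at 2029 and 823.8 in Tfap2b cKO. Rpph1 means were 2494 ± 834.3 and 2501 ± 153.9 CPM (SD, n = 3), with a log2 fold change of -0.075 (SE 0.23). Counts of Rmrp per Rpph1 count were 1.64, 1.6 and 0.796 in controls, 1.43, 1.9 and 1.94 in double cKO, and 0.801 and 0.886 in Tfap2b cKO, so the libraries low in Rmrp were low relative to Rpph1 too. Other short genes showed part of the same order: those under 400 exonic bases, the members apart, took 0.411%, 0.583% and 0.268% of counts in controls, 0.367%, 0.255% and 0.388% in double cKO, and 0.254% and 0.243% in Tfap2b cKO, so double cKO replicate 2 was low here but not in Rmrp. Small nucleolar and small Cajal body RNAs summed to 743.4, 905.3 and 505.0 CPM in controls, 721.9, 561.9 and 788.0 in double cKO, and 536.3 and 444.5 in Tfap2b cKO. The part of short-RNA recovery in the values of Rmrp, Rpph1 and Rn7sk, which is also under 400 bases, was not tested.

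**Figure D2:**
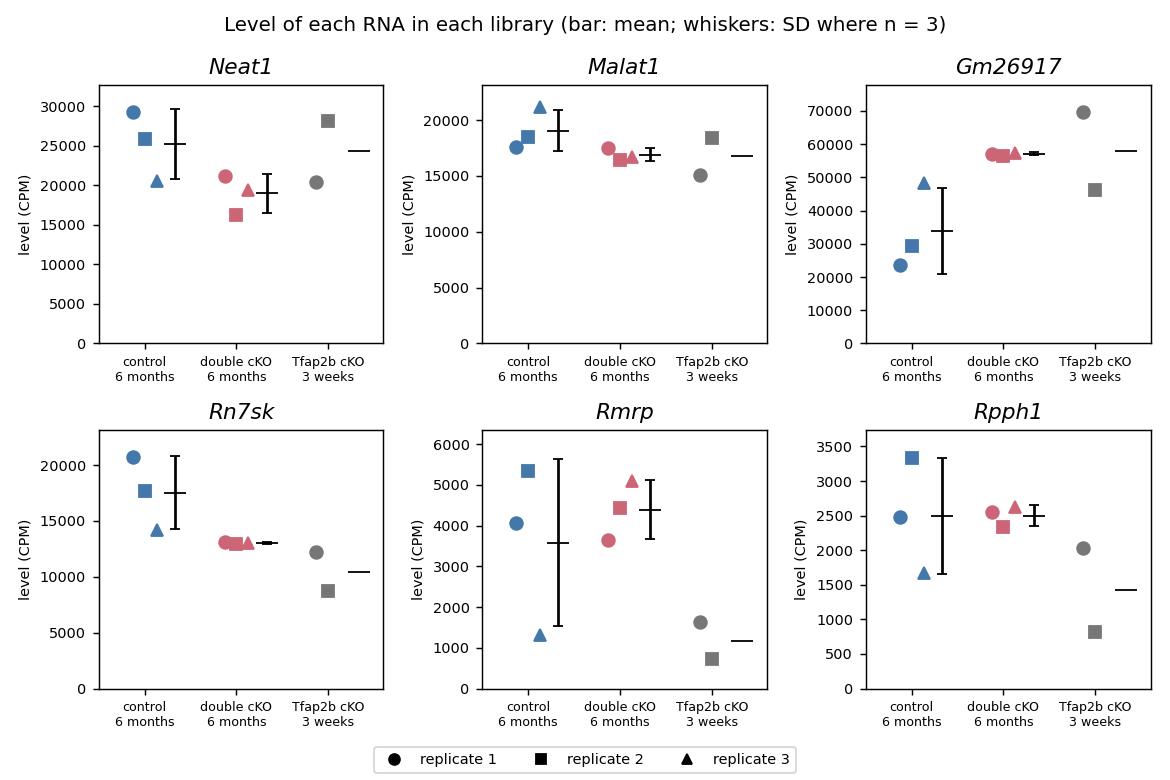
Level in CPM (vertical axis, from 0) of each RNA in each library, by group, with marker shape for the replicate number, a bar for the group mean and whiskers for the SD where there are 3 libraries. The double cKO points of Gm26917 and Rn7sk lie close together, above and below all controls, and the control points of Rmrp run from 1326 to 5336 CPM.

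Replicates agreed more closely in double cKO than in the controls for each of the 6 RNAs. The controls include replicates 1 and 2, which stood apart from the other libraries, so the difference in spread is not read as a trait of the genotype. The coefficient of variation (SD over mean) of Gm26917 was 38.2% in controls and 0.779% in double cKO, and that of Rn7sk 18.7% and 0.809%. In the 2 Tfap2b cKO libraries it was 28.8% for Gm26917 and 23.4% for Rn7sk. Of 2098 genes with a mean of at least 100 CPM, 16 varied less than Gm26917 in double cKO and 20 varied less than Rn7sk. Malat1 was at 9.75% and 3.29%, Neat1 at 17.5% and 13%, Rpph1 at 33.4% and 6.15%, and Rmrp at 57.3% and 16.4%. The median gene of that set was at 13.5% in controls and 8.74% in double cKO. Over all 8 libraries the highest level was 1.4 times the lowest for Malat1, 1.79 for Neat1, 2.38 for Rn7sk, 2.94 for Gm26917, 4.05 for Rpph1 and 7.31 for Rmrp.

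Per kb of exon the order of the RNAs was different from that by counts. These levels divide by the whole exon length, and counts per gene do not separate shorter forms of an RNA. Mean levels over the 8 libraries were 42540 CPM per kb for Rn7sk, 14590 for Gm26917, 12110 for Rmrp, 6990 for Rpph1, 2531 for Malat1 and 1090 for Neat1. Rn7sk led in every library. Gm26917 and Rmrp, neighbours in the order, exchanged places: in controls Rmrp averaged 13200 and Gm26917 10180, and in double cKO 16190 and 17140, with ranges that overlapped in both groups. In Tfap2b cKO Rmrp averaged 4345 and Rpph1 4472. Malat1 stayed above Neat1 per kb in every library, with no overlap between their ranges.

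**Figure D3:**
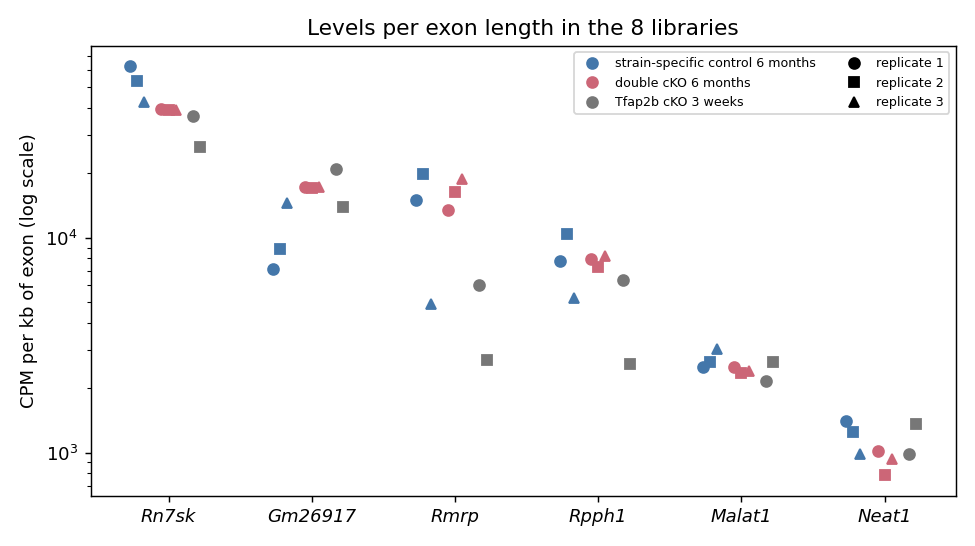
Level per kb of exon (CPM per kb, log scale) of the 6 RNAs in the 8 libraries, coloured by group and shaped by replicate number, ordered by mean level. Rn7sk is highest in every library, Malat1 and Neat1 are the lowest in most, and the widest spread is that of Rmrp.

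Of the 6 RNAs, all passed the filter on low counts, and their log2 fold changes at 6 months had a median of -0.16, beside -0.035 over all 17755 genes tested. Groups did not overlap with double cKO higher for 1 of 6 (Gm26917), where 22.5% of all genes tested did so, and with double cKO lower for 2 of 6 (Malat1 and Rn7sk), where 16.3% did so. Nothing is read from these counts, since this comparison was used to choose the members. The values depended on which controls were used. Without control replicate 3, log2 fold changes were 1.11 for Gm26917, -0.55 for Rn7sk, -0.53 for Neat1, -0.085 for Malat1, -0.092 for Rmrp and -0.21 for Rpph1. Without control replicates 1 and 2, they were 0.18 (SE 0.19) for Gm26917, -0.18 (SE 0.17) for Rn7sk, -0.17 (SE 0.20) for Neat1, -0.38 (SE 0.17) for Malat1, 1.67 (SE 0.24) for Rmrp and 0.53 (SE 0.17) for Rpph1. The last set rests on 1 control, which is assumed to vary like the other group. Gm26917 stayed above 0 and Neat1, Malat1 and Rn7sk below 0 in both, whereas Rmrp and Rpph1 took different signs.

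**Figure D4:**
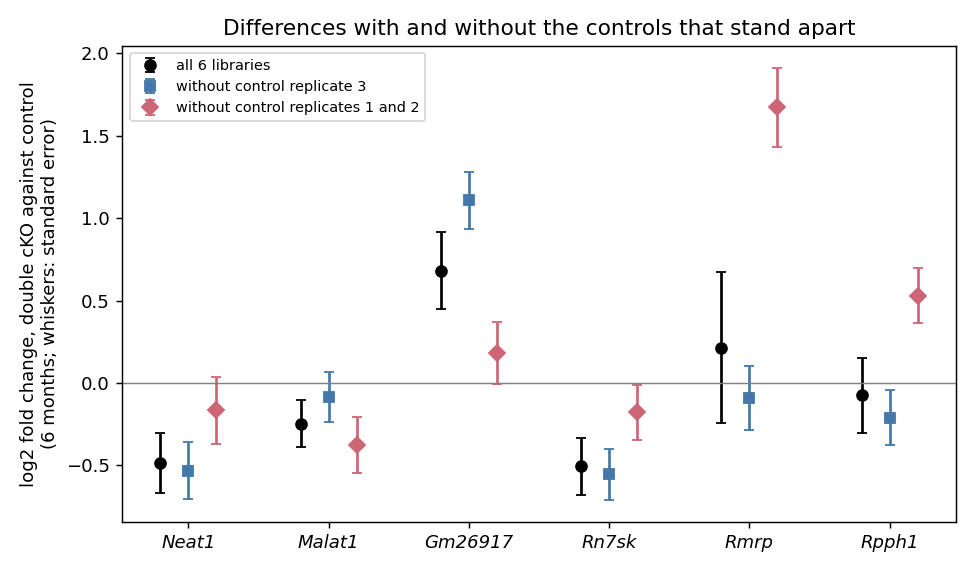
Log2 fold change of double cKO against control at 6 months (vertical axis, whiskers for the standard error) of each RNA with all 6 libraries, without control replicate 3, and without control replicates 1 and 2. Gm26917 goes from 0.68 to 1.11 and 0.18, and Rmrp from 0.21 to -0.092 and 1.67.

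The proteins that work with these RNAs, and related noncoding RNAs, were tested in the fit of all genes with the quasi-likelihood test of edgeR and Benjamini-Hochberg adjustment, and a gene was called at an adjusted p under 0.05. Of 17755 genes, 1111 were called higher in double cKO (6.26%) and 1526 lower (8.59%), 14.9% in all, and with scaling by total counts alone 1376 were higher and 1327 lower. Of 153 genes tested in 9 lists, 16 were called higher and 8 lower. The number was 3 without control replicates 1 and 2, 51 without control replicate 3, 12 and 8 without control replicates 1 or 2 singly, and 3, 6 and 11 without double cKO replicates 1, 2 or 3. Rises and falls below therefore hold for the 6 libraries together, and many did not outlast the removal of 1 library.

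For 7SK, none of 14 protein genes was called, with a median log2 fold change of -0.06. By edgeR 4 had an unadjusted p under 0.05, DESeq2 and limma-voom called 0, and 4 were called higher without control replicate 3. Hexim1, an inhibitor of P-TEFb, had 23.4 ± 5.78 CPM in controls and 22.5 ± 1.65 in double cKO (SD, n = 3), with a log2 fold change of -0.13 and an edgeR adjusted p of 0.709. Larp7, which binds the 3′ end of 7SK, was at 0.33 (edgeR adjusted p = 0.358) and Mepce, which caps its 5′ end, at 0.35 (edgeR adjusted p = 0.307). None of the 11 protein subunits of RNase P and RNase MRP was called either. Their median was 0.28, 1 had an unadjusted p under 0.05 by edgeR, and DESeq2 and limma-voom called 0.

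Of 16 paraspeckle protein genes, 4 rose and none fell, with a median of 0.26. Nono, which pairs with SFPQ on Neat1, went from 108.8 ± 9.79 to 157.6 ± 16.0 CPM (SD, n = 3; log2 fold change 0.46, edgeR adjusted p = 0.0475). Cpsf7, a subunit of a 3′ end processing factor, rose by 0.66 on the log2 scale (edgeR adjusted p = 0.0253). Dazap1, an RNA-binding protein, rose by 0.52 (edgeR adjusted p = 0.0415), and Smarca4, the ATPase of a chromatin remodeller, by 0.41 (edgeR adjusted p = 0.043). Sfpq was at -0.13 (edgeR adjusted p = 0.557) and Pspc1 at -0.31 (edgeR adjusted p = 0.273). With 1 library left out, these 4 calls held only without control replicate 3, and in the 5 other fits adjusted p ran from 0.0628 to 0.0996 for Cpsf7, 0.0926 to 0.142 for Dazap1, 0.092 to 0.164 for Nono and 0.0703 to 0.124 for Smarca4. No paraspeckle gene was called without control replicates 1 and 2, and 1 was with all 8 libraries in one fit.

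Of 20 nuclear speckle genes, 4 rose and 1 fell, with a median of 0.15. Srsf6, an SR splicing factor, went from 104.3 ± 8.82 to 170.5 ± 15.3 CPM (SD, n = 3; log2 fold change 0.63, edgeR adjusted p = 0.0133). Srrm2, a core protein of the speckle, rose by 0.63 (edgeR adjusted p = 0.0396) and the SR factor Srsf1 by 0.54 (edgeR adjusted p = 0.0274). Srsf3, another SR factor, fell by 0.53 on the log2 scale (edgeR adjusted p = 0.0336). Srsf6 lost its call without double cKO replicate 1 or 2 (adjusted p 0.0556 to 0.073). The calls of Srrm2, Srsf1 and Srsf3 held only without control replicate 3, with adjusted p of 0.0779 to 0.144, 0.0702 to 0.11 and 0.0684 to 0.142 in the 5 other fits. No gene of this list was called without control replicates 1 and 2, and 2 were, both higher, with all 8 libraries in one fit.

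Of 24 genes for RNA polymerase III and the factors it uses at such short RNA genes, 1 rose and 1 fell, with a median of 0.19. Polr3b, the second largest subunit, went from 22.8 ± 3.86 to 42.2 ± 4.50 CPM (SD, n = 3; log2 fold change 0.81, edgeR adjusted p = 0.0189). It lost its call without control replicate 2 or double cKO replicate 1 or 2 (adjusted p 0.0612 to 0.0818). Pou2f1, which encodes the octamer factor OCT1, fell by 0.54 on the log2 scale (edgeR adjusted p = 0.0347) and lost its call in each of the 6 fits with 1 library left out (adjusted p 0.0524 to 0.162). The list had 7 genes called higher and 0 lower without control replicate 3, 3 higher and 1 lower with DESeq2, and 0 in either direction without control replicates 1 and 2, where its median was 0.009.

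Ribosome biogenesis, in which Rmrp acts, had 5 genes of 20 called, all higher, with a median of 0.34. Polr1a, the largest subunit of RNA polymerase I, went from 36.4 ± 3.18 to 79.5 ± 6.38 CPM (SD, n = 3; log2 fold change 1.05, edgeR adjusted p = 0.00265). Dkc1, the pseudouridine synthase dyskerin, went from 12.3 ± 1.90 to 30.2 ± 3.82 CPM (log2 fold change 1.20, edgeR adjusted p = 0.00502). Both kept their calls in all 6 fits that left out 1 library. Wdr12, a factor for the large ribosomal subunit, rose by 0.92 (edgeR adjusted p = 0.0168) and Utp20, a factor for the small subunit, by 0.78 (edgeR adjusted p = 0.0121). Wdr12 lost its call without control replicate 2 or double cKO replicate 1 or 2 (adjusted p 0.0525 to 0.0629), and Utp20 without double cKO replicate 1 (adjusted p = 0.063). The list had 2 calls without control replicates 1 and 2.

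Of 29 other long noncoding RNAs tested, 2 rose and 6 fell, with a median of 0.071. The counts were 1 higher and 2 lower with limma-voom, 0 and 3 with all 8 libraries in one fit, and 2 and 7 with DESeq2, where the median was -0.023. Snhg11, a host of small nucleolar RNAs, had 59, 113 and 58 counts in controls and 12, 12 and 19 in double cKO (log2 fold change -2.65, edgeR adjusted p = 0.00649). Meg3 and Rian, imprinted noncoding RNAs of 1 cluster, had log2 fold changes of -2.62 (edgeR adjusted p = 0.0184) and -2.48 (edgeR adjusted p = 0.0206). Meg3 had 47, 93 and 29 counts in controls and 6, 9 and 17 in double cKO, and Rian 48, 51 and 27 against 3, 9 and 13. Fibroblast markers moved with both: their summed level was 53.0 to 156.8 CPM in controls and 11.7 to 23.1 in double cKO. In Tfap2b cKO replicate 1, where it was 2556 CPM, Meg3 had 610 counts and Rian 321, and in replicate 2, at 17.3 CPM, they had 7 and 5. The counts per kb of the receptor genes, applied to their exon lengths, come to 29.1 and 57.7 counts for Meg3 and 28.1 and 55.7 for Rian in control replicates 1 and 2. For Snhg11 the same background came to 13.7 and 27.2 counts. Snhg11 had 90 counts in Tfap2b cKO replicate 1 and 12 in replicate 2. The part of fibroblast RNA and of this background in the falls was not tested. Mir17hg, a microRNA cluster host, had a log2 fold change of -1.71 (edgeR adjusted p = 0.0405). Snhg11 kept its call in all 6 fits that left out 1 library. Meg3 lost it without control replicate 2 or double cKO replicate 1 or 2 (adjusted p 0.0711 to 0.0874), Rian in all but those without control replicate 3 or double cKO replicate 3 (adjusted p 0.0637 to 0.092), and Mir17hg in all but that without control replicate 3 (adjusted p 0.0668 to 0.125). With limma-voom the adjusted p was 0.0761 for Meg3, 0.0532 for Rian and 0.0688 for Mir17hg, and with all 8 libraries in one edgeR fit 0.238, 0.187 and 0.0559. Without control replicates 1 and 2, 1 gene of this list was called higher and 0 lower. For the members set beside these RNAs, receptor counts scaled in the same way came to at most 66.3 of 292793 counts, for Neat1 in control replicate 2.

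Of 15 other structured noncoding RNAs tested, such as the Y RNA Rny1 and the telomerase RNA Terc, and of 4 genes that collect ribosomal RNA reads, none was called. Their median log2 fold changes were -0.23 and -0.62, no gene of either list had an unadjusted p under 0.05 by edgeR, and DESeq2 and limma-voom called 0. Without control replicate 2, 1 structured RNA was called higher, and without control replicate 3, 2 were called lower. Neither median kept its sign. That of the structured RNAs was 0.172 with DESeq2, 0.029 with limma-voom, 0.212 without a filter on low counts (2 called higher), 0.278, 0.067 and 0.066 without control replicate 1, control replicate 2 or double cKO replicate 2, and 0.612 without control replicates 1 and 2. That of the genes collecting ribosomal RNA reads was 0.273 without control replicate 2 and 1.612 without control replicates 1 and 2.

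**Figure D5:**
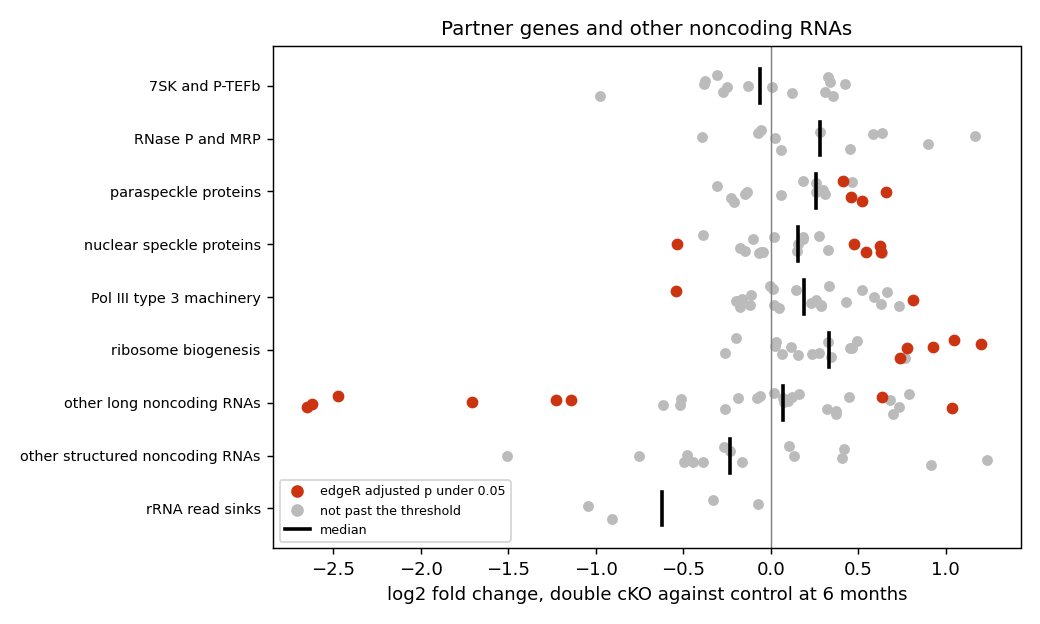
Log2 fold change of double cKO against control at 6 months (horizontal axis) of each tested gene in the 9 lists of partner genes and other noncoding RNAs, with the median of each list as a black line and called genes in red. Called genes number 5 of 20 in ribosome biogenesis, 4 of 16 among paraspeckle proteins and 0 of 14 in the 7SK list.

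The 2 Tfap2b cKO libraries differed from each other for every member. Replicate 1 had the higher value of Gm26917 (69646 against 46106 CPM), Rn7sk, Rmrp and Rpph1, and replicate 2 the higher value of Neat1 (28155 against 20402 CPM) and Malat1. Their ratios of higher to lower value were 1.22 for Malat1, 1.38 for Neat1, 1.4 for Rn7sk, 1.51 for Gm26917, 2.23 for Rmrp and 2.46 for Rpph1. Markers of cells below the epidermis moved with replicate 1, at 712.3 against 0.240 CPM summed over 4 adipocyte markers, 400 against 0.320 over 4 endothelial markers and 238.4 against 7.27 over 4 red blood cell markers. Their part in the levels of the 6 RNAs was not tested. Age and genotype cannot be told apart from the 6-month groups for these libraries, so no difference from them was tested.

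The genes most like each member were found by Pearson's r of log2(CPM + 1) over the 8 libraries, among 9105 genes with a mean of at least 10 CPM, as a description. The points share library, depth and base composition. For Gm26917 they were Timm44 (r = 0.987), Tnrc18 (0.986) and Ap2a1 (0.984), and 316 genes had r over 0.9. For the other 5 members 13 to 30 genes did. Neat1 was most like Zfp36 (0.954), Gm38357 (0.95) and Errfi1 (0.948), and Malat1 most like Zfp984 (0.979), Clcn3 (0.976) and Nktr (0.971). Rn7sk was most like Zfp46 (0.969), Nrarp (0.957) and Gm13833 (0.951). Rmrp was most like Ccdc86 (0.969), Selenof (0.959) and Lars2 (0.95), which is 1 of the genes that collect ribosomal RNA reads. Rpph1 was most like Rps29 (0.962), Gm42418 (0.962) and Nhp2 (0.959), and Gm42418 is another of those genes.

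Among all genes of a noncoding type, the 6 RNAs took ranks 1 to 4, 6 and 7 by mean CPM over the 8 libraries. Rank 5 was Gm42418 with a mean of 4389 CPM, and ranks 8 to 10 were Gm26870 (1102 CPM), Gm23935 (497.5) and Kcnq1ot1 (374.9). Just inside the set, Rpph1 had a mean of 2230 CPM. Gm26870, just outside it, ran from 0.560 to 5852 CPM, whereas the least abundant member of the set, Rpph1, ran from 823.8 to 3334. Rn7sk supplied 98.3% to 99% of counts of its annotated type (miscellaneous RNA), Rmrp and Rpph1 99.6% to 100% of those of ribozymes, and Gm26917, Neat1 and Malat1 78.8% to 96.4% of those of long intergenic noncoding RNAs.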

How the data were processed

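Epidermal total RNA was depleted of ribosomal RNA and sequenced as 150 bp read pairs, per the labels' protocols. The authors deposited whole-number counts per gene, not normalized. The submitters' processing notes name Trimmomatic 0.36, STAR 2.5.2b, featureCounts, Subread 1.5.2 and the builds GRCm38 and GRCh38; GRCm38 was taken here from the match of identifiers and coordinates. Settings for strand, overlaps and multiple mapping are not given in the sources used here. Of 49315 identifiers, 48970 (99.3%) were in GENCODE M21, which gave symbols, types and sequences. Samples were grouped by title. The members and lists were chosen with earlier results of these data known, and the sets of GC-rich, GC-poor and short genes were chosen after seeing the data.

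Counts per 1000000 (CPM) use each library's total. The 3 and 3 libraries at 6 months were compared with edgeR 4.0.16 in R 4.3.3 (filterByExpr, TMM, robust glmQLFit with a prior count of 2, glmQLFTest), adjusting over all 17755 genes. Standard errors come from the unshrunken coefficient and F. Steps were tested on simulated data. Alternatives were other scalings and filters, DESeq2 1.42.0, limma-voom (limma 3.58.1), a replicate block, all 8 libraries in one fit, and libraries left out. Named genes were the 6 members; up to 4 called genes of each list with the largest change; Hexim1, Larp7, Mepce, Nono, Sfpq and Pspc1; 3 genes most like each member; the 10 most abundant noncoding genes; and Tfap2a, Tfap2b and Xist. For the 6 members, depths of 11318181 to 17746284 counts leave counting error small beside the spread between libraries. That does not hold for genes of few counts, such as Rian with 3, 9 and 13 in double cKO. The labels name no molecular identifiers, so reads may include PCR copies. Mitochondrial rRNA and some ribosomal genes are not analysed here.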

Additional observations from a re-analysis of the deposited data

How the results depend on the processing

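The total number of genes called at 6 months was 2637 with all 6 libraries and moved with most choices. It was 4809 without a filter on low counts, 4012 with DESeq2, 1729 with the replicate number as a block, 1548 with all 8 libraries in one fit and 437 without control replicates 1 and 2. With 1 library left out it ran from 668 (without double cKO replicate 1) to 7544 (without control replicate 3). Scaling by total counts gave 1376 higher and 1327 lower, against 1111 and 1526. The median log2 fold change of all genes was -0.035, but -0.56 without a filter and -1.25 with DESeq2, which tested more genes of low count. The number of list genes called was 24. It was 14 with the block, 12 with all 8 libraries in one fit, 3 without control replicates 1 and 2, and 3 to 51 with 1 library left out. No pairing by replicate number was seen, with deviations of same-numbered libraries correlated at 0.00751, -0.169 and -0.0705 over 17032 genes. Control replicates 1 and 2, which stood apart, enter these values, so a pairing is not excluded.

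Over 16 alternatives Gm26917 stayed above 0 and Neat1, Malat1 and Rn7sk below 0, Rmrp was above 0 in 15 and Rpph1 below 0 in 12. Without a filter Malat1 was at -0.14. Without control replicates 1 and 2 the values were -0.17 for Neat1, -0.38 for Malat1, 0.18 for Gm26917, -0.18 for Rn7sk, 1.67 for Rmrp and 0.53 for Rpph1. With 1 library left out, ranges were -0.53 to -0.35 for Neat1, -0.29 to -0.085 for Malat1, 0.49 to 1.11 for Gm26917, -0.55 to -0.36 for Rn7sk, -0.092 to 0.62 for Rmrp, -0.21 to 0.19 for Rpph1 and 0.922 to 1.39 percentage points for the share of the 6 RNAs. Hexim1 changed sign, with a range of -0.27 to 0.089 and the highest value without control replicate 1. The cause of these differences was not tested. The fits also differed in their number of libraries or of genes, and the part of that was not tested either.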
